A study of Mus musculus with 15 samples.

Results

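Mouse embryonic stem (ES) cells that kept the MEK inhibitor PD0325901 for 24 h after every other factor was withdrawn were compared with cells from which all factors were withdrawn. The comparison rests on 6 of the 15 arrays of the series, chosen by sample title: PD03 replicates 1 to 3 and DMSO replicates 1 to 3. Before withdrawal all groups had grown in 2i medium, which holds CHIR99021 at 3 µM, an inhibitor of the kinase GSK3, and PD0325901 at 1 µM, together with the cytokine LIF. The PD03 group then kept PD0325901 at 1 µM without CHIR99021 or LIF, and the DMSO group kept none of them. A further 6 arrays served for comparison: the CHIR group kept only CHIR99021 at 3 µM, and the 2i group kept both inhibitors, again without LIF for 24 h (n = 3 each). The 2iLIF group (n = 3) was never deprived of a factor, and only its levels are quoted. All groups came from a single line, a 2i-adapted ES line in which a biotin acceptor and 3xFLAG tag were inserted at Ctnnb1 (beta-catenin) and which carries the biotin ligase BirA, so every group shares these alleles. The label of each array started from 300 ng of total RNA.

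ES cells make FGF4, which acts on their own FGF receptors and drives RAS, RAF, MEK and ERK in turn. ERK activates transcription factors of the ETS family and, with the serum response factor SRF, switches on immediate early genes. It also induces its own brakes: dual-specificity phosphatases (Dusp genes), which remove the activating phosphates from MAP kinases, and Sprouty and Spred proteins, which act between the receptor and RAF. In ES cells ERK signalling promotes exit from the naive state towards a formative, epiblast-like state, and MEK inhibition is one of the means by which 2i medium holds cells in the naive state.

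Values are log2 RMA signals, so a difference of 1 is a change of 2-fold, and each gene is represented by 1 probe set. Array medians lay between 6.98 and 7.06. Each PD03 and DMSO array correlated best with the arrays of its own group. The ES cell markers were high on these arrays: none of 12 had a DMSO mean below the median of all genes (7.41), and their DMSO means ran from 9.82 to 12.97. A gene is said to have risen or fallen where its limma p-value, adjusted by Benjamini-Hochberg over all 19937 genes, was under 0.05, and those words describe PD03 relative to DMSO, not a course over time. Differences are given ± the standard error (SE) of the limma fit, with 3 arrays per group. That fit pools the spread over all 15 arrays of the series. The SE therefore does not rest on the compared arrays alone, and it can be too small where those arrays spread widely.

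Of the 19937 genes, 3354 passed (16.8%), 1729 of them higher with PD0325901 (8.67%) and 1625 lower (8.15%). Differences were mostly small. Only 472 of these genes moved by at least 0.5 on the log2 scale and 76 by at least 2-fold (0.381% of all genes), 48 upward (0.241%) and 28 downward (0.14%). The 3 PD03 values and the 3 DMSO values did not overlap for 6262 genes (31.4%). The median difference over all genes was 0.0045. Counts of list members below are to be read against these shares.

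**Figure D1:**
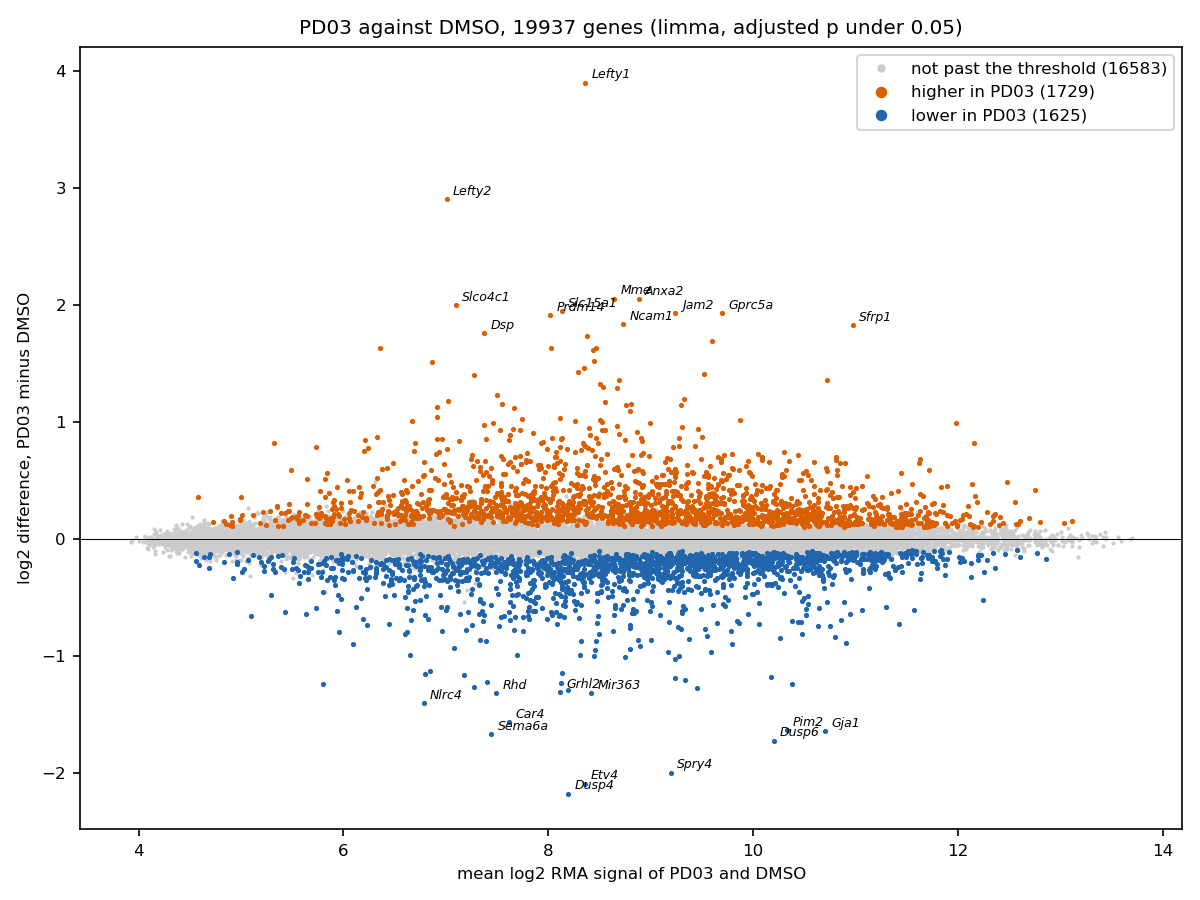
Difference between PD03 and DMSO (vertical axis, log2) against the mean log2 RMA signal of both groups (horizontal axis) for 19937 genes; orange and blue points passed the threshold and grey points did not. The labelled genes are the 12 highest and 12 lowest, from Lefty1 at 3.90 to Dusp4 at -2.18, and genes past the threshold lie at all signal levels.

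The direct brakes on ERK were lower when MEK was inhibited, and by very different amounts. Of 11 MAP kinase phosphatase genes 6 fell and 2 rose (median -0.12). Of 7 Sprouty and Spred genes 5 fell and none rose (median -0.60). Dusp4, a nuclear phosphatase of ERK and other MAP kinases, read 7.05, 7.10 and 7.17 on the PD03 arrays and 9.27, 9.40 and 9.18 on the DMSO arrays. The groups did not overlap and each varied little, and the fit gave -2.18 ± 0.06, or 4.52-fold lower (adjusted p = 1.74e-12). Dusp6, the cytoplasmic phosphatase that acts mainly on ERK, read 9.40, 9.32 and 9.30 against 11.11, 11.03 and 11.04. All DMSO arrays lay above all PD03 arrays, at -1.72 ± 0.06 (3.30-fold lower, adjusted p = 1.3e-11). In the 2iLIF culture, which had the inhibitor throughout, Dusp4 had a mean of 7.01 and Dusp6 of 9.48, close to their PD03 means of 7.11 and 9.34.

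The other phosphatases differed by far less. Dusp1, which acts on p38 and JNK as well as ERK, read 10.55, 10.65 and 10.52 in PD03 and 11.00, 10.95 and 10.93 in DMSO (-0.39 ± 0.05, adjusted p = 5.27e-05). Dusp9, another ERK phosphatase, fell by 0.37 ± 0.05 and Dusp5, a nuclear ERK phosphatase, by 0.23 ± 0.04 on the log2 scale. Dusp7 was at -0.12 ± 0.04, with an adjusted p of 0.0447 that passed the threshold no longer when PD03 replicate 1 or 3 or DMSO replicate 2 or 3 was left out. The members that rose were Dusp16 (0.29 ± 0.05), which acts mainly on JNK, and Dusp14 (0.23 ± 0.04). Dusp2, Dusp8 and Dusp10 did not pass, at 0.04, 0.05 and 0.14.

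Among the receptor-proximal inhibitors Spry4 stood apart. It read 8.33, 8.18 and 8.09 in PD03 and 10.17, 10.16 and 10.27 in DMSO, a difference of -1.996 ± 0.09 (3.99-fold lower, adjusted p = 5.86e-10). Spred1 read 9.59, 9.64 and 9.65 against 10.32, 10.22 and 10.27, and Spry2 read 9.06, 9.04 and 9.01 against 9.59, 9.61 and 9.70. Neither gene had overlapping groups, and their differences were -0.64 ± 0.05 and -0.60 ± 0.06. Spred3 (-0.62 ± 0.08) and Spry1 (-0.34 ± 0.05) fell as well. Spred2 was at -0.10 ± 0.04 (adjusted p = 0.121). Its other, dimmer probe set gave -0.19 ± 0.04 and passed. Spry3 was at -0.01 ± 0.06.

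**Figure D2:**
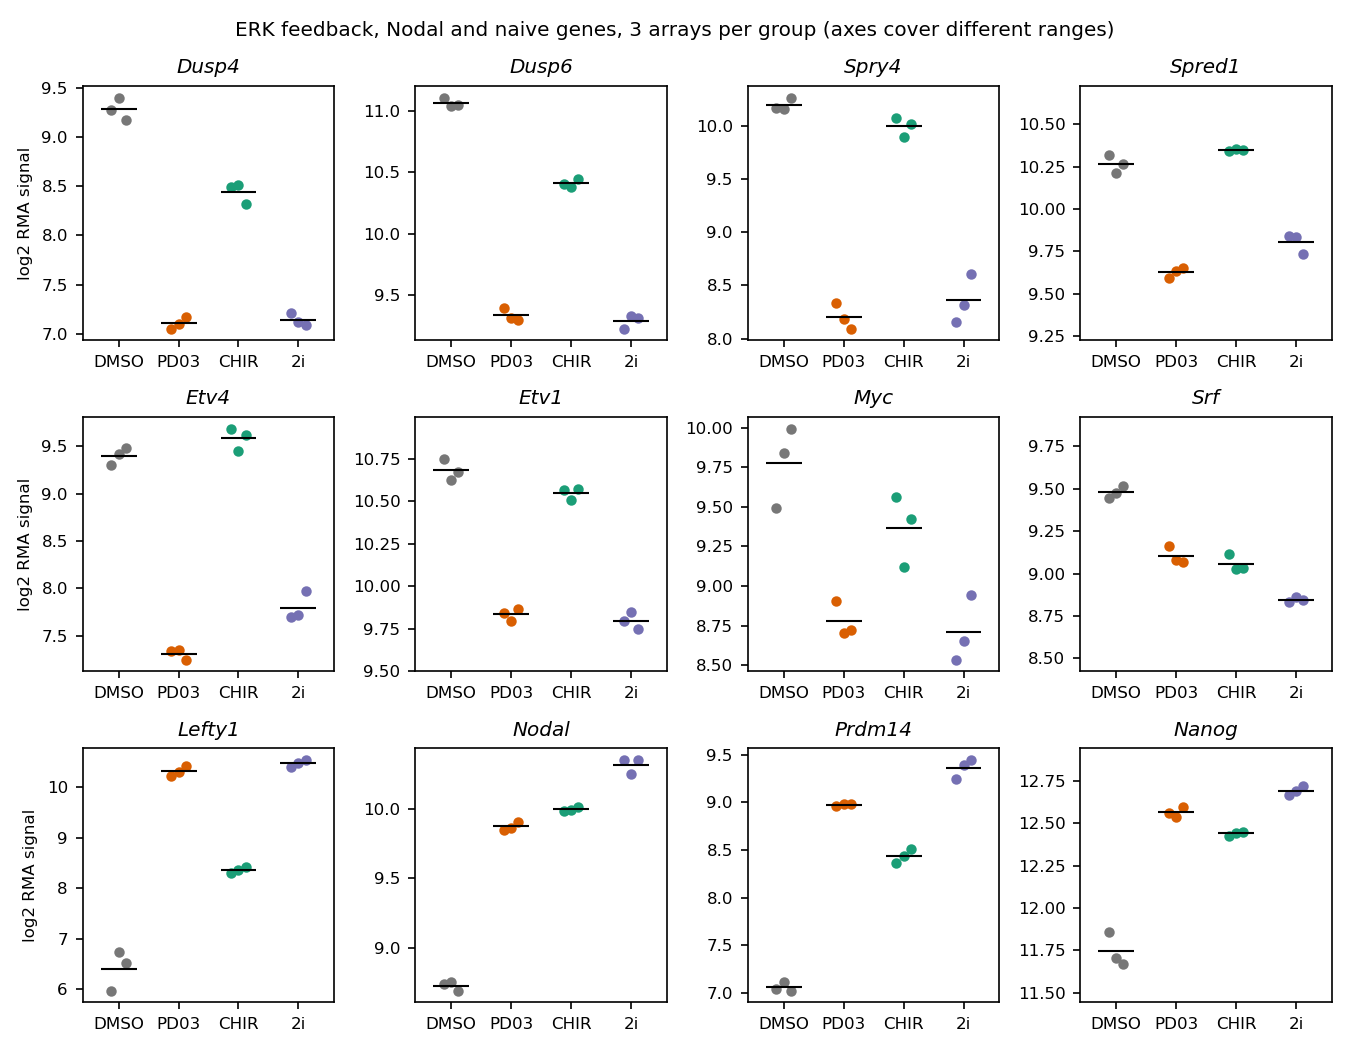
Log2 RMA signal (vertical axis, a different range in each panel) of 12 genes on the 3 arrays each of DMSO, PD03, CHIR and 2i (horizontal axis); points are arrays and lines are group means. Dusp4, Dusp6, Spry4, Spred1, Etv4, Etv1, Myc and Srf lie lower in PD03 than in DMSO on every array, and Lefty1, Nodal, Prdm14 and Nanog higher.

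ETS factors carry ERK signals to the genome, and the Etv4 and Etv1 genes are themselves induced by FGF signalling. Of 12 ETS genes 2 fell, 2 rose and 8 did not pass. Etv4 read 7.34, 7.35 and 7.25 in PD03 and 9.30, 9.42 and 9.49 in DMSO, so that it was 4.26-fold lower (-2.09 ± 0.08, adjusted p = 5.19e-11). Etv1 read 9.84, 9.79 and 9.87 against 10.75, 10.63 and 10.67 (-0.85 ± 0.04), and its other probe set gave -0.94 ± 0.07. Elk4 (0.19 ± 0.04) and Elf1 (0.21 ± 0.05, lost without PD03 replicate 2) rose slightly. Elk1, Elk3 and Ets2 were at 0.04, 0.00 and -0.11 and did not pass.

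Etv5, the third gene of the Etv1, Etv4 and Etv5 group, gave different answers on its 2 probe sets, of which only the dimmer passed. The brighter set, which represents the gene here, read 11.86, 11.88 and 11.84 in PD03 and 11.83, 11.75 and 11.76 in DMSO (0.08 ± 0.03, adjusted p = 0.154). The dimmer set read 10.59, 10.60 and 10.57 against 11.38, 11.31 and 11.29. There the groups were separated by -0.74 ± 0.06 (adjusted p = 1.86e-07 over all 21640 probe sets), a size close to that of Etv1, and the same set was at -0.73 ± 0.06 in 2i minus CHIR. The mean of both sets gave -0.33 ± 0.04 (adjusted p = 2.37e-05). Which part of the transcript each set covers was not examined here, so the Etv5 transcript is left without a direction.

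Immediate early genes respond to ERK within minutes, and 24 h after withdrawal 6 of 20 were lower, 4 were higher and 10 did not pass. Myc, a growth regulator, read 8.90, 8.71 and 8.72 in PD03 and 9.49, 9.84 and 9.99 in DMSO. The groups did not overlap although the DMSO arrays spread widely, and Myc was 2.00-fold lower (-0.998 ± 0.13, adjusted p = 3.47e-05). Egr1, a zinc finger factor, read 6.35, 6.41 and 6.45 against 7.01, 6.93 and 6.61 (-0.45 ± 0.09). Srf itself read 9.17, 9.08 and 9.07 against 9.45, 9.48 and 9.52 (-0.38 ± 0.04, adjusted p = 3.43e-06). Ier2 (-0.24 ± 0.05), Phlda1 (-0.20 ± 0.04) and Ier3 (-0.25 ± 0.08) were the other members that fell. The call for Ier3 was lost whichever PD03 or DMSO array was left out. In the other direction Klf6, a Krüppel-like factor, read 10.70, 10.67 and 10.68 against 10.10, 9.98 and 9.97 (0.67 ± 0.05). Jund (0.25 ± 0.05), Jun (0.18 ± 0.06) and Klf10 (0.16 ± 0.04) also rose. The Jun call was lost without PD03 replicate 1 or 3 or without DMSO replicate 1 or 2, and the Klf10 call without PD03 replicate 3. Fos was at 0.05 ± 0.09, with DMSO values of 6.24, 6.40 and 6.18.

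The promoters of Srf and Dusp5, both lower with PD0325901, are shown because they hold letters that SRF and ETS factors are known to bind. The sequences run 5′ to 3′ along the gene and cover the 250 bases before the annotated start, from RefSeq on GRCm38.p6, at chr17:46556163-46556412 (minus strand) for Srf and chr19:53528895-53529144 (plus strand) for Dusp5. Capitals mark matches to the CArG box, the SRF motif, and to the ETS letters CCGGAAG, searched on both strands.
Srf: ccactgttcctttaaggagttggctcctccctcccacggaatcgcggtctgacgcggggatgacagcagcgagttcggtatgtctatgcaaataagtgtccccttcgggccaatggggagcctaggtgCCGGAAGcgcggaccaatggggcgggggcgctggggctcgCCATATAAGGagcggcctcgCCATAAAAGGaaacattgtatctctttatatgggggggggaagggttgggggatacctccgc
Dusp5: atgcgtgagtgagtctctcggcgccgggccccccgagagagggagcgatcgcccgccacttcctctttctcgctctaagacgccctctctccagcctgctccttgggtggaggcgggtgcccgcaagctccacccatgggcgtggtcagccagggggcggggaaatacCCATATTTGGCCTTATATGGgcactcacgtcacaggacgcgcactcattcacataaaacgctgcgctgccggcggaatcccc

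The Srf promoter had the ETS match 122 to 116 bases before the start and CArG boxes at 82 to 73 and at 62 to 53 bases. The Dusp5 promoter had CArG boxes at 82 to 73 and at 72 to 63 bases, back to back. Over the window from 250 bases before to 50 after the start, 1.63% of 32851 mouse promoters held a CArG box and 8.86% the ETS letters. Of 37 phosphatase, Sprouty, ETS and immediate early genes with a promoter in the table, 3 held a CArG box (Srf, Dusp5 and Egr2) and 3 the ETS letters (Srf, Elk4 and Gabpa). Of these genes only Srf and Dusp5 fell: Egr2 was at -0.04, Gabpa at 0.02 and Elk4 at 0.19. Dusp4, Spry4, Etv4, Myc and Egr1, which fell, had no promoter in the table and are not in these counts. Across tested genes with a promoter in the table, 13.6% of 15613 held the ETS letters, 17.0% of the 1263 that fell and 12.2% of the 1380 that rose. For the CArG box the shares were 1.63%, 1.19% and 1.67% of the same genes, lowest among those that fell. The Dusp6 promoter held neither motif in this window. A match describes letters and not a bound site.

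Of 15 measured genes of the RAS and ERK cascade, upstream of these targets, 1 rose and 1 fell (13.3%, near the 16.8% of all genes): the RAF kinase gene Braf was at -0.16 ± 0.04 and the scaffold gene Ksr1 at 0.20 ± 0.06. Leaving out any 1 array except PD03 replicate 3 left a single member past the threshold. Among 18 FGF ligands and receptors, 2 fell and 2 rose (22.2%, against 16.8% of all genes). Fgf5, the ligand that marks the formative epiblast, read 7.47, 7.48 and 7.56 in PD03 and 8.34, 8.74 and 9.14 in DMSO (-1.23 ± 0.14, 2.35-fold lower). Its DMSO arrays were widely spread and its PD03 arrays lay close together. Fgfr2, an FGF receptor, read 8.46, 8.32 and 8.42 against 8.01, 7.81 and 7.75 (0.54 ± 0.08). Fgf4, the ligand of the autocrine loop, rose by 0.23 ± 0.04. Fgfrl1, a receptor without a kinase domain, fell by 0.13 ± 0.04, a call lost without PD03 replicate 1 or 3 or DMSO replicate 2.

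Naive pluripotency genes stood higher with the inhibitor. Of 16 measured, 12 rose and 1 fell (median 0.45). Prdm14, which represses DNA methyltransferase genes and FGF receptor signalling, read 8.96, 8.98 and 8.98 in PD03 and 7.04, 7.11 and 7.02 in DMSO (1.91 ± 0.05, 3.77-fold). Klf2, a factor whose protein ERK signalling destabilises, read 9.93, 9.96 and 9.90 against 8.79, 8.71 and 8.69 (1.20 ± 0.04, adjusted p = 5.13e-12). Tcl1, a co-activator of AKT, read 10.17, 10.25 and 10.27 against 8.97, 8.77 and 8.72 (1.41 ± 0.07). In each of these genes the groups were separated by more than 1 log2 unit.

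The central factor Nanog read 12.56, 12.54 and 12.60 against 11.86, 11.71 and 11.67, or 1.77-fold higher (0.82 ± 0.04). Tbx3 (0.77 ± 0.07), Zfp42 (0.66 ± 0.06), Klf4 (0.61 ± 0.09) and Tfcp2l1 (0.53 ± 0.05) followed. The smallest increases were in Nr5a2 (0.37 ± 0.06), Fgf4, Klf5 and Nr0b1, and the Klf5 call (0.20 ± 0.05) was lost without PD03 replicate 2. Gbx2 went the other way: it read 8.35, 8.37 and 8.28 in PD03 and 8.63, 8.90 and 8.97 in DMSO (-0.50 ± 0.07). Most of these levels remained under those of the continuous 2iLIF culture. Klf4 had means of 7.74 in PD03, 7.14 in DMSO and 9.91 in 2iLIF, and Tfcp2l1 of 10.55, 10.02 and 12.08, whereas Nanog (12.56 in PD03, 12.72 in 2iLIF) and Klf2 (9.93 and 10.10) were near their 2iLIF means. In bulk RNA a difference of this kind does not tell apart fewer cells that express a gene and less of its RNA per cell.

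General pluripotency genes did not follow the naive ones. Of 13 measured, 5 fell and 2 rose. Pou5f1 (Oct4) read 12.53, 12.50 and 12.52 in PD03 and 12.52, 12.54 and 12.56 in DMSO (-0.02 ± 0.03, adjusted p = 0.76). Lin28a and Lin28b, RNA-binding proteins that block let-7 maturation, fell by 0.46 ± 0.06 and 0.55 ± 0.08. The chromatin factor Utf1 read 12.03, 11.99 and 11.94 against 12.56, 12.47 and 12.50 (-0.52 ± 0.04), and Dppa4 fell by 0.27 ± 0.06. Fitted on the 6 arrays alone, 4 members of this list passed instead of 7.

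Of 19 formative and primed epiblast genes 13 fell and none rose (median -0.57), and the count was 13 whichever single PD03 or DMSO array was left out. Pim2, a serine/threonine kinase gene, read 9.53, 9.54 and 9.47 in PD03 and 10.77, 11.28 and 11.38 in DMSO (-1.63 ± 0.13, 3.10-fold lower). Grhl2, a grainyhead factor that opens epithelial enhancers, read 7.47, 7.52 and 7.40 against 8.57, 8.79 and 8.95 (-1.31 ± 0.09). For both genes the DMSO arrays were the more variable ones and replicate 1 was the lowest of them, as it was for Fgf5. The list also holds Etv4, described above, the de novo methyltransferase genes, and the transcription factor genes Lef1 (-0.70 ± 0.05), Sall2 (-0.64 ± 0.09), Foxd3 (-0.57 ± 0.12), Sox11 (-0.57 ± 0.06) and Pou3f1 (-0.53 ± 0.10). Otx2, a homeobox factor that drives the formative programme, read 11.00, 10.97 and 11.04 against 11.51, 11.60 and 11.64 (-0.58 ± 0.06). In PD03 it remained far above its 2iLIF mean of 7.98.

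Within the Nodal pathway, Lefty1 and Lefty2 had the largest differences of the whole comparison. Nodal and related TGF-beta ligands signal through activin receptors and SMAD2/3, and Lefty1 and Lefty2 are secreted antagonists that the pathway induces. Of 21 measured members 9 rose, none fell and 12 did not pass (median 0.04). Lefty1 read 10.21, 10.30 and 10.41 in PD03 and 5.97, 6.74 and 6.51 in DMSO, a 14.9-fold difference (3.90 ± 0.13, adjusted p = 1.4e-11). Lefty2 read 8.44, 8.39 and 8.55 against 5.48, 5.58 and 5.62 (2.90 ± 0.07). The DMSO values of Lefty2 were among the low signals of the array, where RMA compresses differences, and the 2 genes are close paralogs whose probes may share signal. Nodal read 9.85, 9.86 and 9.91 against 8.74, 8.75 and 8.69, or 2.21-fold higher (1.15 ± 0.04). Pcsk6, a protease that matures Nodal, rose by 0.68 ± 0.04, the inhibitory SMAD gene Smad7 by 0.49 ± 0.05 and the receptor gene Acvr1b by 0.35 ± 0.04. Gdf3, Tgfbr1 and Tgfb1 rose by 0.20, 0.21 and 0.20, the last a call lost without PD03 replicate 1 or 2 or DMSO replicate 3. The co-receptor gene Tdgf1 (0.17 ± 0.07) and the cofactor gene Foxh1 (-0.09 ± 0.03) did not pass.

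The Id genes, targets of BMP signalling that block helix-loop-helix factors, split. Id2 read 9.07, 8.80 and 8.81 in PD03 and 7.84, 8.12 and 8.25 in DMSO (0.82 ± 0.10). Id3 read 7.10, 6.81 and 7.10 against 7.74, 7.61 and 7.59 (-0.64 ± 0.10), and Id1 was at -0.05 ± 0.06. Id4 rose by 0.30 ± 0.08, a call lost without PD03 replicate 2 or DMSO replicate 3. The ligand gene Bmp7 rose by 0.61 ± 0.07 and Bmp4 was at -0.12 ± 0.08 with overlapping arrays. In all, 3 of 15 BMP pathway and Id genes rose and 1 fell.

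De novo DNA methyltransferase genes fell. Dnmt3a read 10.37, 10.37 and 10.40 in PD03 and 11.02, 11.15 and 11.19 in DMSO (-0.74 ± 0.05), and Dnmt3b read 11.33, 11.20 and 11.28 against 11.79, 11.87 and 11.96 (-0.61 ± 0.06). Both remained above their 2iLIF means of 8.55 and 9.51. Their cofactor gene Dnmt3l was at -0.19 ± 0.06, a call lost on leaving out any 1 of the 6 arrays but DMSO replicate 1. Uhrf2 fell by 0.34 ± 0.07 and Hells, a chromatin remodeller, by 0.18 ± 0.05 (lost without PD03 replicate 2 or DMSO replicate 3). Mbd2 rose by 0.19 ± 0.05. The maintenance genes Dnmt1 and Uhrf1 were at 0.02 and 0.04 and did not pass, and neither did the oxidase genes Tet1, Tet2 and Tet3.

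Without LIF or CHIR99021 in either group, LIF and Wnt pathway genes still differed in part. Of 15 LIF and STAT3 pathway genes 6 rose and 1 fell. Il6st, the shared receptor gp130, read 10.23, 10.21 and 10.23 in PD03 and 9.96, 9.78 and 9.78 in DMSO (0.38 ± 0.05). The largest members were Klf4, Tfcp2l1 and Gbx2, which also stand on the naive list. Socs3, the immediate feedback target of STAT3, was at -0.13 ± 0.08 (adjusted p = 0.307). Of 18 Wnt pathway genes and targets 2 rose and 4 fell. Notum, a secreted enzyme that inactivates Wnt proteins, read 8.76, 8.79 and 8.71 against 7.83, 7.97 and 8.05 (0.80 ± 0.06), and Tcf7l1, the repressor among the TCF factors, rose by 0.42 ± 0.04. Among the 4 that fell were Myc and Lef1, which also belong to other lists. Axin2, the usual reporter gene of beta-catenin activity, read 7.63, 7.63 and 7.72 against 8.10, 7.83 and 7.65, with overlapping groups (-0.19 ± 0.08, adjusted p = 0.11).

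Several further genes with large increases encode cell surface, secreted or junction proteins. Mme, the peptidase neprilysin, read 9.75, 9.63 and 9.63 in PD03 and 7.86, 7.36 and 7.63 in DMSO (4.15-fold). Gprc5a, an orphan receptor induced by retinoic acid, read 10.66, 10.73 and 10.60 against 9.22, 8.58 and 8.40 (3.82-fold), and Jam2, a junctional adhesion molecule, read 10.20, 10.21 and 10.20 against 8.39, 8.18 and 8.27 (3.81-fold). In all of these the PD03 arrays were tight and the groups lay more than 1 log2 unit apart. Sfrp1, a secreted Wnt antagonist, read 11.88, 11.90 and 11.89 against 10.21, 9.99 and 9.99 (3.55-fold). Dsp, the desmosomal plaque protein desmoplakin, read 8.13, 8.40 and 8.23 against 6.59, 6.60 and 6.28 (3.39-fold). The adhesion molecule gene Ncam1, the anion transporter gene Slco4c1 and the peptide transporter gene Slc15a1 were 3.57-, 3.99- and 3.86-fold higher.

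Anxa2, an annexin that binds membranes and actin, read 9.82, 9.97 and 9.93 in PD03 and 8.13, 7.55 and 7.91 in DMSO (4.13-fold). S100a10, whose protein forms a tetramer with that annexin, read 12.46, 12.44 and 12.53 against 11.49, 11.50 and 11.48 (0.99 ± 0.04). Anxa6 rose by 0.56 ± 0.05 and Actn1, an actin cross-linker, by 0.40 ± 0.04. They stand on a list of 24 actin genes and SRF targets, of which 8 rose and 1 fell. A much dimmer probe set of Anxa6 gave 0.03 ± 0.08 and did not pass.

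Of 28 matrix and integrin genes 14 rose and 3 fell. Nid1, the basement membrane linker nidogen, read 10.35, 10.46 and 10.33 in PD03 and 9.58, 9.23 and 9.27 in DMSO (2.02-fold). The integrin gene Itga9 rose by 0.67 ± 0.05 and the laminin chain gene Lama1 by 0.57 ± 0.05. Other integrin subunits differed in direction. Itga1, a collagen receptor subunit, read 5.79, 5.50 and 5.65 against 6.56, 6.51 and 6.55 (-0.90 ± 0.10), and Itga3, a laminin receptor subunit, read 8.56, 8.57 and 8.45 against 9.16, 9.10 and 9.13 (-0.60 ± 0.04).

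Junction genes moved both ways, 7 of 24 upward and 6 downward. The gap junction gene Gja1 (connexin 43) read 9.996, 9.81 and 9.85 in PD03 and 11.54, 11.54 and 11.50 in DMSO, or 3.12-fold lower, whereas Gjb5, another connexin gene, rose by 0.86 ± 0.06. P-cadherin (Cdh3) rose by 0.70 ± 0.04, and E-cadherin (Cdh1) was at -0.02 ± 0.03. The keratins Krt8 and Krt18, which pair in the same filament, went apart: Krt8 read 10.06, 10.09 and 10.06 against 9.50, 9.17 and 9.40 (0.72 ± 0.07), and Krt18 read 8.49, 8.46 and 8.38 against 9.11, 8.97 and 8.96 (-0.57 ± 0.05). The Krt18, Cdh1, Cdh3 and Lama1 values were singled out after they were seen.

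Guidance receptors also differed one by one. Of 18 Eph receptors and ephrins 6 rose and 2 fell. Epha7 read 8.25, 8.23 and 8.26 in PD03 and 9.42, 9.17 and 9.19 in DMSO (-1.01 ± 0.07), Epha1 was at -0.70 ± 0.08, and Epha4 rose by 0.72 ± 0.04. Of 26 semaphorins, plexins and neuropilins 7 rose and 3 fell. Sema6a read 6.51, 6.65 and 6.67 against 7.82, 8.34 and 8.67 (3.17-fold lower) and Sema4c fell by 0.53 ± 0.05, while Sema4b rose by 0.53 ± 0.03 and the co-receptor gene Nrp2 by 0.41 ± 0.04. The DMSO arrays of Sema6a were widely spread, all of them above the PD03 arrays.

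The remaining genes among the 12 lowest have no common role. Car4, a membrane-bound carbonic anhydrase, read 6.88, 6.88 and 6.76 in PD03 and 7.87, 8.44 and 8.90 in DMSO (2.96-fold lower, adjusted p = 4e-06). Nlrc4, an inflammasome receptor, was 2.64-fold lower, and Rhd, the Rh blood group protein, 2.50-fold lower. The microRNA gene Mir363 completes the group and is described below.

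Cell cycle and survival genes differed at a few points. Ccnd2, the cyclin D2 gene, read 8.06, 8.16 and 8.05 in PD03 and 8.88, 8.94 and 8.88 in DMSO (-0.81 ± 0.11), Cdk6 fell by 0.39 ± 0.04 and Ccne1, the cyclin E1 gene, by 0.22 ± 0.04. Of 19 genes of the D cyclins, kinases and inhibitors 4 passed (21.1%, near the 16.8% of all genes). Ccnd2, Cdk6 and Ccne1 fell, and the inhibitor gene Cdkn2b rose by 0.16 ± 0.05, a call lost without PD03 replicate 2 or 3 or DMSO replicate 3. Of 14 Bcl2 family genes 2 passed, both lower (14.3%, near the 16.8% of all genes). Each of the 2 encodes a BH3-only protein that promotes apoptosis. Pmaip1 (Noxa) read 8.65, 8.70 and 8.85 against 10.03, 9.90 and 9.87 (2.30-fold lower, adjusted p = 4.7e-08). Bcl2l11 (Bim), whose protein ERK targets for degradation, read 8.43, 8.25 and 8.27 against 8.88, 8.94 and 9.07 (-0.65 ± 0.06). The protective member Mcl1 was at -0.01 ± 0.05.

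Among metabolic lists, glycolysis showed 6 members higher and 4 lower of 20. Slc2a3, a glucose transporter gene, rose by 0.42 ± 0.05, and Pdk1, which shuts pyruvate dehydrogenase, and Pfkm, a phosphofructokinase gene, fell by 0.61 ± 0.04 and 0.47 ± 0.05. Without PD03 replicate 2 the glycolysis count dropped from 10 to 6. Sterol synthesis genes rose in 4 of 18 cases, led by Ebp (0.30 ± 0.05), and none fell (22.2% called, against 16.8% of all genes). Only 1 or 2 sterol synthesis genes passed when any single PD03 or DMSO array was left out. Of 22 ribosome biogenesis genes 8 fell, led by Rrp9 (-0.28 ± 0.06). Leaving out single arrays gave 3 to 11: between 3 and 5 without PD03 replicate 2 or 3 or without DMSO replicate 2 or 3, and 11 without DMSO replicate 1. With a trended, robust variance 13 passed. Of 20 stress response and amino acid supply genes 2 fell and none rose (10%, against 16.8% of all genes). They were the cystine transporter gene Slc7a11, by 0.49 ± 0.06, and Slc6a9, by 0.15 ± 0.04. The count was 1 without PD03 replicate 1 or 3 or DMSO replicate 2 or 3, 3 without DMSO replicate 1 and 4 with a trended, robust variance.

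Among 21 lysosomal genes and TFEB family members 6 rose and 4 fell. Mitf, a transcription factor of the TFEB family, read 9.27, 9.29 and 9.40 in PD03 and 8.05, 8.03 and 8.01 in DMSO (2.45-fold higher, adjusted p = 3.07e-11). A much dimmer probe set of Mitf gave 0.02 ± 0.07. The family member Tfe3, whose protein sustains naive self-renewal while in the nucleus, fell by 0.31 ± 0.05, and Rragd, a Rag GTPase that holds these factors at the lysosome, fell by 0.57 ± 0.04. Npc1, a lysosomal cholesterol transporter, rose by 0.50 ± 0.04.

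**Figure D3:**
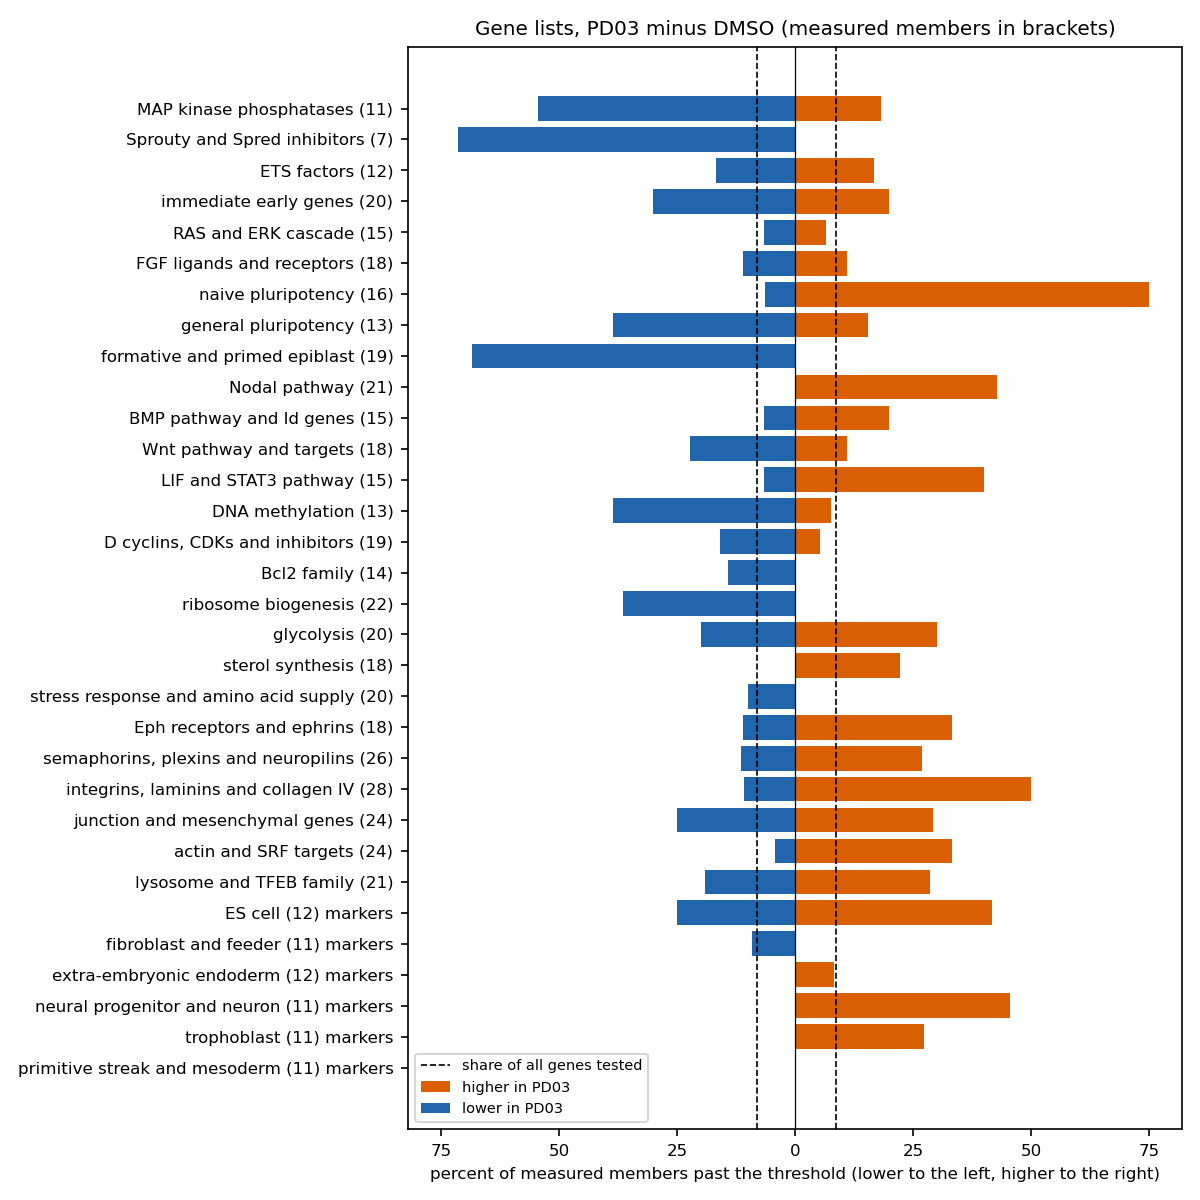
Percent of the measured members of each gene list that were higher (right, orange) or lower (left, blue) in PD03 than in DMSO at an adjusted p under 0.05; dashed lines mark the 8.67% and 8.15% of all genes. The naive list reaches 12 of 16 on the right and the formative list 13 of 19 on the left, while the RAS and ERK cascade, with 1 of 15 on each side, stays inside the dashed lines.

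Markers of other cell types were looked at in the same way. None of 11 primitive streak and mesoderm genes passed. Of 11 fibroblast and feeder markers 1 fell, Dcn, by 0.32 ± 0.07, and 10 of the 11 had DMSO means below the median of all genes. Of 12 extra-embryonic endoderm markers 1 rose, Gata4, a call lost without PD03 replicate 2 or 3 or DMSO replicate 3. Gata6 and Sox17, defining genes of that lineage, had PD03 means of 6.22 and 6.18 and DMSO means of 6.12 and 6.08. Of 11 trophoblast markers 3 rose: Plet1 (0.59 ± 0.07), Tfap2c (0.34 ± 0.08) and Eomes (0.36 ± 0.10, lost without PD03 replicate 1 or 3 or DMSO replicate 2 or 3). Cdx2 and Elf5 were at 0.01 and -0.07.

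Of 11 neural markers 5 rose and none fell. Besides Ncam1, the tubulin gene Tubb3 read 9.42, 9.33 and 9.25 in PD03 and 8.32, 8.61 and 8.48 in DMSO (0.86 ± 0.07), Nes, an intermediate filament of progenitors, rose by 0.64 ± 0.07, and Pax6 by 0.43 ± 0.05. The mean level of the list was 7.44 to 7.45 on the PD03 arrays and 7.09 to 7.10 on the DMSO arrays. Sox1, the defining factor of early neural progenitors, was at -0.15 ± 0.07 (adjusted p = 0.163), and the neurogenic factor Neurog2 at 0.07 ± 0.05. Whether a few cells of another type contribute to these values was not tested.

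MicroRNA genes gave a pattern that ran along the genome. The array measures RNA from the hairpin region, not the mature microRNA, and most signals were low. Of 272 microRNA genes 24 fell and 3 rose (9.93% called). Genes within 10000 bases of each other on one strand formed 12 clusters with at least 3 measured members, of which 3 had any member past the threshold. A single chromosome was left out of this grouping, and its clusters are not reported here. Apart from Mir363, named by rule, the clusters were singled out after their values were seen. The Mir363 to Mir106a cluster at chrX:52741693-52742567 (minus strand, GRCm38.p6) fell in 5 of 5 measured members. The mature microRNAs of these hairpins are shown, from RefSeq, because they fall into a few seed families. Capitals mark the seed, bases 2 to 8.
miR-106a-5p: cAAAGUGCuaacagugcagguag
miR-20b-5p: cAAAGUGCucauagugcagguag
miR-19b-3p: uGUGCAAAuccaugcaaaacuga
miR-92a-3p: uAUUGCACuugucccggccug
miR-363-3p: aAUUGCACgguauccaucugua

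The first pair shares the seed AAAGUGC and the last pair AUUGCAC. Mir363 read 8.01, 7.58 and 7.69 in PD03 and 9.07, 9.07 and 9.08 in DMSO, 2.49-fold lower (-1.31 ± 0.11, adjusted p = 4.77e-07). Mir19b-2 read 5.69, 5.50 and 5.48 against 6.30, 6.23 and 6.52 (-0.79 ± 0.10), and Mir106a read 5.88, 5.74 and 5.98 against 6.66, 6.41 and 6.73 (-0.73 ± 0.10). Each had PD03 arrays below all DMSO arrays. Mir20b (-0.59 ± 0.09) and Mir92-2 (-0.24 ± 0.06) fell too. All 5 passed again whichever PD03 or DMSO array was left out. The paralogous Mir17 to Mir92-1 cluster on chromosome 14 had 0 of 5 members past the threshold, with differences from -0.13 to -0.06, although its hairpins resemble those on the X chromosome and probes could share signal.

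In the Mir302b to Mir367 cluster on chromosome 3, which is abundant in the primed epiblast, 3 of 5 members fell, with a cluster median of -0.48. This count was 0 without PD03 replicate 2 or DMSO replicate 3, 1 without PD03 replicate 3 or DMSO replicate 2, and 0 when only the 6 arrays were fitted. The 2 members below, with the seed in capitals, share it.
miR-302b-3p: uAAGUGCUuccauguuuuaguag
miR-302d-3p: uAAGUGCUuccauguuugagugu

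Mir302d read 5.90, 5.42 and 5.81 in PD03 and 5.96, 6.12 and 6.49 in DMSO (-0.48 ± 0.13, adjusted p = 0.0193). Mir302b read 5.32, 4.96 and 5.06 against 5.23, 5.71 and 6.27, and these arrays overlapped although the gene passed (adjusted p = 0.0312). The third cluster with calls, Mir379 to Mir3072 on chromosome 12, lies in an imprinted domain transcribed from the maternal allele. Of its 29 measured members 14 fell, 28 were below 0 and the median was -0.21, against -0.01 over all 272 microRNA genes. When only the 6 arrays were fitted 10 members passed, and 7 did without the limma moderation of each gene's variance. Without PD03 replicate 2, PD03 replicate 3 or DMSO replicate 3 the members past the threshold numbered 7, 8 and 7, and 26 to 29 were below 0 whichever array was left out. The neighbouring Mir770 to Mir136 cluster of the same strand had 0 of 8 past the threshold and a median of 0.04.

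**Figure D4:**
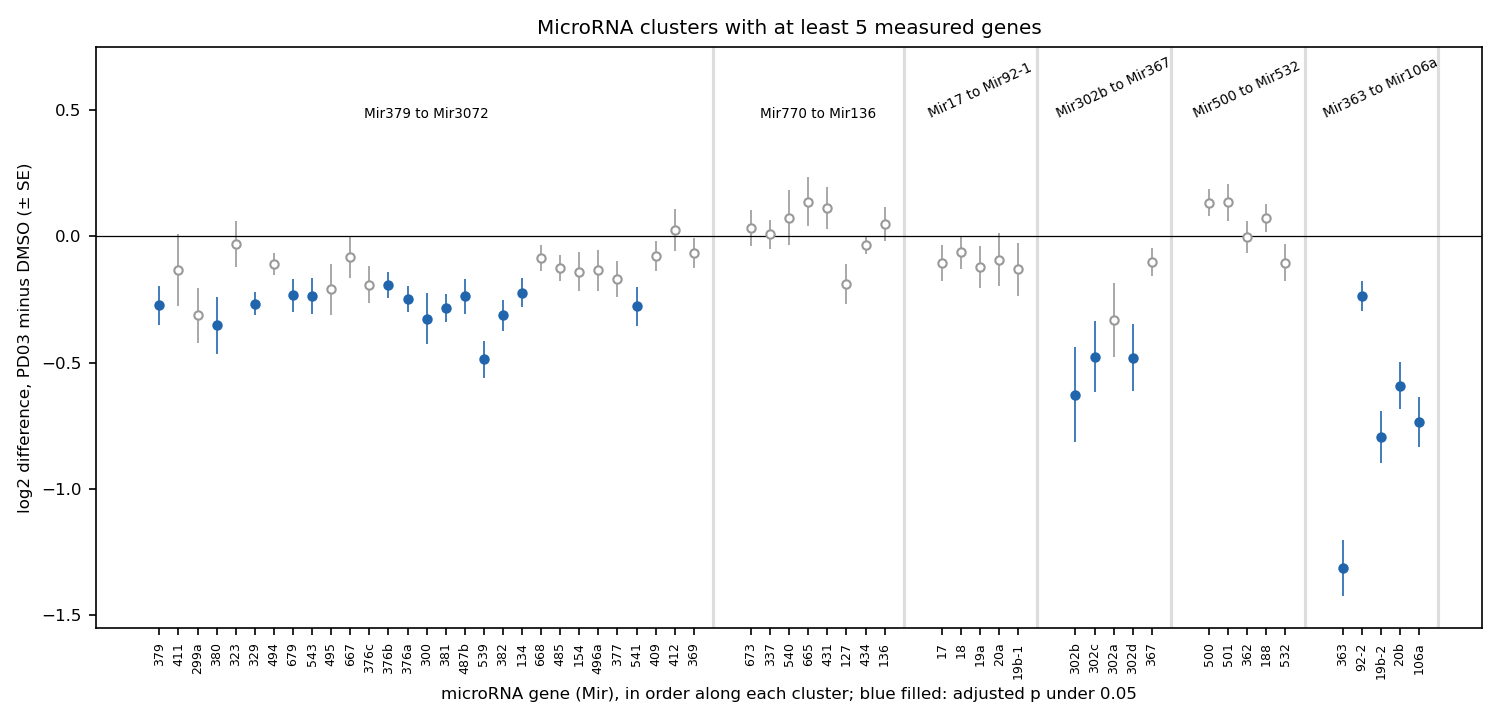
Log2 difference between PD03 and DMSO (vertical axis, bars are SE) of each measured microRNA gene in the 6 clusters with at least 5 measured genes, in genome order along the horizontal axis; blue filled points passed the threshold. All 5 genes from Mir363 to Mir106a lie below 0 and passed, and none from Mir17 to Mir92-1 did.

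The inhibitor was next followed in the second setting, on top of CHIR99021 (2i minus CHIR), which shares no array with PD03 minus DMSO. Both comparisons take the spread of each gene from the same fit to all 15 arrays, so their calls are not independent. In 2i minus CHIR 1887 genes passed (9.46%), 1137 higher (5.7%) and 750 lower (3.76%). With each array centred on its median the higher share was 49.8% instead of 60.3%. Both comparisons called 1371 genes, which is 40.9% of the 3354 and 72.7% of the 1887. Of these, 1361 differed in the same direction (825 higher, 536 lower) and 10 in opposite directions. Across all genes, which are not independent replicates, the differences correlated with r = 0.732. The 12 highest and 12 lowest genes named from PD03 minus DMSO were all called in the same direction in 2i minus CHIR.

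The size was often smaller with CHIR99021 present. Genes that rose in PD03 minus DMSO had a median of 0.248 there and 0.154 in 2i minus CHIR, and genes that fell -0.235 and -0.116. Choosing genes by one comparison favours large values in it. When the genes were chosen by 2i minus CHIR instead, the medians were 0.239 there and 0.262 in PD03 minus DMSO for those higher, and -0.239 in both for those lower. The difference between the settings was tested as an interaction, (2i minus CHIR) minus (PD03 minus DMSO). It passed for 406 genes (2.04%), 186 with a positive value (0.933%) and 220 with a negative one (1.1%). The positive calls made up 45.8%, or 32.9% after centring. Leaving out PD03 replicate 1 or 3 gave 269 and 255 genes. Of the 375 that also passed in PD03 minus DMSO, 287 had a smaller difference of the same sign with CHIR99021, 14 a larger one, and 74 an opposite sign. The interaction contains the PD03 and DMSO arrays, so selection on both favours a smaller difference in the other setting.

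The ERK targets differed among themselves. Dusp4 had a CHIR mean of 8.44 and a 2i mean of 7.14, a difference of -1.30 ± 0.06 against -2.18 ± 0.06 without CHIR99021 (interaction 0.87, adjusted p = 3.66e-05). The PD03 and 2i means were nearly the same, and the CHIR mean lay below that of DMSO. Dusp6 behaved alike, at -1.12 ± 0.06 against -1.72 ± 0.06 (interaction 0.60, adjusted p = 5.83e-04). Etv4 (-1.79 against -2.09), Spry4 (-1.64 against -1.996), Spred1 (-0.55 against -0.64) and Etv1 (-0.75 against -0.85) had interactions with adjusted p of 0.245, 0.234, 0.67 and 0.58, so no difference between settings was detected for them at this precision. Dusp1 and Dusp9, which fell without CHIR99021, were at -0.04 and -0.07 with it (interaction adjusted p = 0.0223 and 0.0362). These 2 interaction calls were lost on leaving out any of several single arrays, among them PD03 replicate 1 or 3.

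The interaction passed for 5 of 16 naive pluripotency genes and 4 of 21 Nodal pathway genes, and for the other members no difference between the settings was detected. Lefty1 had a CHIR mean of 8.36 and a 2i mean of 10.47 (2.11 ± 0.13 against 3.90 ± 0.13, interaction -1.79, adjusted p = 5.61e-05). Nodal was at 0.32 ± 0.04 against 1.15 ± 0.04, Klf2 at 0.34 ± 0.04 against 1.20 ± 0.04, Nanog at 0.25 ± 0.04 against 0.82 ± 0.04 and Prdm14 at 0.92 ± 0.05 against 1.91 ± 0.05, with an interaction of adjusted p 1.09e-04 or less in each. In these genes the CHIR mean was above the DMSO mean and the 2i mean differed from the PD03 mean by less than 0.5. Otx2 (-0.69 against -0.58) and Dnmt3b (-0.58 against -0.61) had interactions with adjusted p of 0.715 and 0.956. Of the 5 Bcl2 and cyclin genes given above as lower, Ccnd2 had the largest difference in 2i minus CHIR, at -1.35 ± 0.11 against -0.81 ± 0.11 (interaction adjusted p = 0.0874).

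Other genes also differed between the settings. Of the 76 genes that differed at least 2-fold, 72 were also called in the same direction in 2i minus CHIR, and the other 4 were Fgf5, Gpm6a, Il10 and Wt1. All 4 kept a negative sign there. Fgf5 was at -0.41 (limma adjusted p = 0.0796) and Gpm6a at -0.24 (0.0566), both near the threshold. Il10 was at -0.16 (0.524) and Wt1 at -0.05 (0.819). Wt1, a zinc finger factor, read 6.73, 6.88 and 6.76 in PD03 and 7.69, 8.19 and 8.15 in DMSO, while its CHIR and 2i means were 6.92 and 6.87 (interaction 1.17, adjusted p = 5.86e-04). Il10, an interleukin gene, read 5.20, 5.16 and 5.18 against 6.18, 6.20 and 6.88, and its CHIR and 2i means of 5.18 and 5.02 were low signals. In both genes DMSO was the highest group and the other groups lay close together.

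Nt5e, the surface ecto-nucleotidase CD73, read 6.39, 6.63 and 6.51 in PD03 and 7.02, 6.82 and 6.74 in DMSO (-0.35 ± 0.08), but had a CHIR mean of 9.74 and a 2i mean of 8.03 (-1.71 ± 0.08, interaction -1.36, adjusted p = 3.85e-06). Nefl, the neurofilament light chain gene, reversed its sign: it read 9.57, 9.44 and 9.50 against 9.01, 8.83 and 9.09 (0.53 ± 0.06) and had a CHIR mean of 11.29 and a 2i mean of 10.66 (-0.63 ± 0.06, interaction adjusted p = 2.27e-06). Lpar6, a lysophosphatidic acid receptor gene, was at -1.19 ± 0.07 without CHIR99021 and -0.27 ± 0.07 with it, and Gpm6a, a neuronal membrane glycoprotein gene, at -1.13 ± 0.08 and -0.24 ± 0.08. Itga1 and Itga3 diverged as well: Itga1 was at -1.87 ± 0.10 with CHIR99021 against -0.90 ± 0.10, and Itga3 at 0.01 ± 0.04 against -0.60 ± 0.04 (interaction adjusted p = 8.05e-04 and 4.5e-05).

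**Figure D5:**
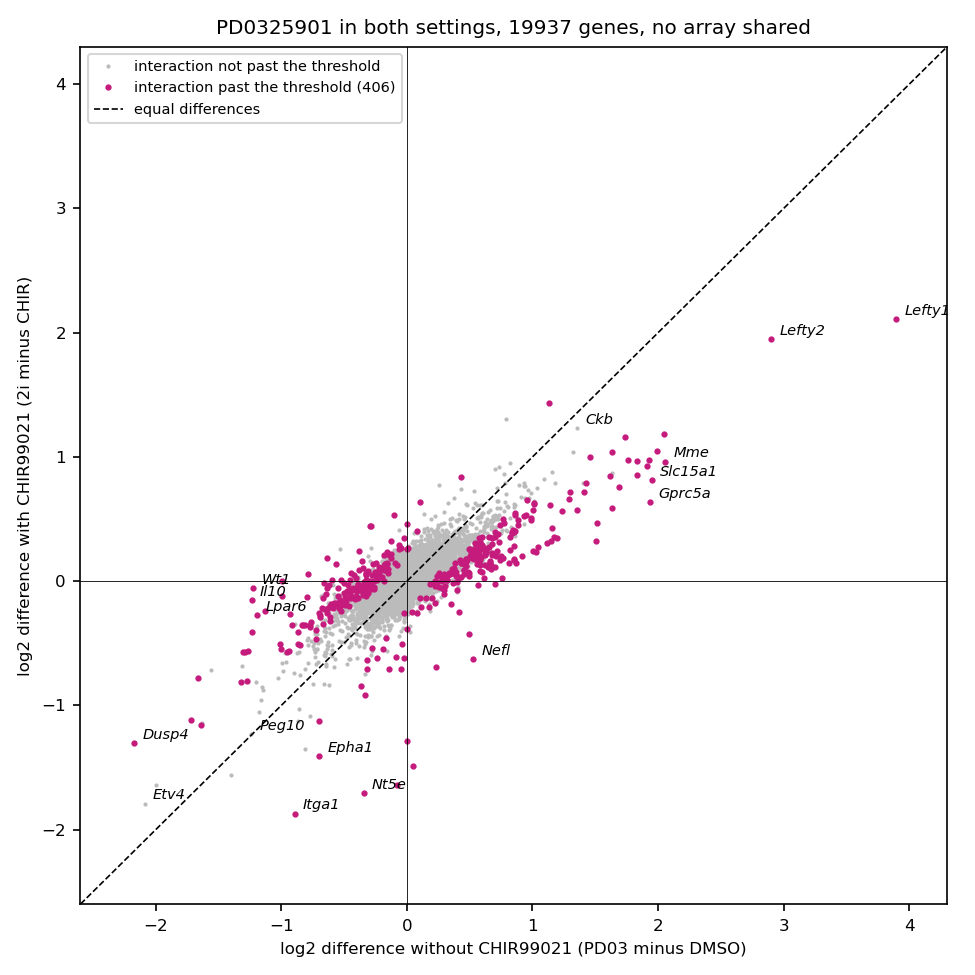
Log2 difference made by PD0325901 with CHIR99021 (2i minus CHIR, vertical axis) against that without it (PD03 minus DMSO, horizontal axis) for 19937 genes; pink points passed the interaction test and the dashed line marks equal differences. Lefty1 lies at 3.90 and 2.11, below the line, and Nefl at 0.53 and -0.63, on the other side of 0.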

How the data were processed

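Each of 15 RNA samples of a mouse ES cell line was hybridised to its own single-colour Affymetrix array, 3 per group; RNA was isolated with TRIZOL and RNeasy columns, per the labels' protocols. The log2 values were deposited by the authors as probe set summaries made with RMA, per the submitters' processing notes. Its version and the array annotation's build are not given in the sources used here. RMA equalises the distributions of the arrays, so a change common to most genes would be hidden. No detection calls were used, so a low value may be background.

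Of 34760 probe sets 21640 had exactly 1 gene symbol in the platform annotation, 1321 had several and 11799 were unnamed. Of the 21640, 21553 had a gene identifier in the RefSeq table. For 954 genes with several sets, the set brightest on average over 15 arrays was used, which left 19937 genes. With limma 3.58.1 in R 4.3.3, a linear model of 1 mean per group was fitted to the 15 arrays (10 residual and 5.09 prior degrees of freedom), and p-values (two-sided) were adjusted by Benjamini-Hochberg over all genes at 0.05. The number of arrays limits the precision: the median SE of a difference was 0.0509, and 0.072 for the interaction. Nothing in the labels marks replicates as separate cultures; p-values therefore measure the spread between these arrays alone, and it may be technical. On simulated data for PD03 minus DMSO with all 19937 genes, 86% of genes changed by 0.3 and 98% of those changed by 0.5 were recovered, with 12 false calls. The simulation changed 200 genes and drew independent noise for each gene and array, so these figures need not hold for the real arrays.

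The comparison, the 32 gene lists (536 genes, 504 measured) and the naming rule were chosen with earlier results of these data known. The rule took the 12 highest and 12 lowest non-overlapping genes that passed, up to 4 members per list, all members of 9 lists, and 6 interactions on each side. Other named genes (lineage markers, Pou5f1, Axin2, Socs3, Otx2, Foxd3, Pou3f1, Sall2, Sox11, Cdh1, Cdh3, Krt18, Lama1, microRNAs other than Mir363 and those in the closing section) were chosen after their values were seen. Some genes the rule gives are not reported here. Alternatives were the 6 compared arrays alone, the replicate number as a block, the mean of probe sets, a filter on dim genes, array centring, other variance settings, a 2-fold minimum and leaving out each array. MicroRNA and promoter sequences came from RefSeq tables on GRCm38.p6.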

Additional observations from a re-analysis of the deposited data

Results flagged for a closer look

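For 58 named genes the difference made by PD0325901 depended on CHIR99021, by the limma interaction test of (2i minus CHIR) minus (PD03 minus DMSO) at an adjusted p under 0.05. Of all 19937 genes 406 passed that test (2.04%). The genes were named in part by that test and by their PD03 minus DMSO differences, which enter it. The count of 58 is therefore no result about the named genes. The values below are the interaction on the log2 scale. Its median SE over all genes was 0.072, but the SE of a listed gene can be well above that. For Lefty1 the SE of PD03 minus DMSO alone was 0.13, and for Fgf5 it was 0.14. A negative value means that the difference made by PD0325901 was lower with CHIR99021 than without it, and a positive value that it was higher. Among feedback phosphatase genes, it was 0.87 (Dusp4), 0.60 (Dusp6), 0.35 (Dusp1), 0.30 (Dusp9) and -0.36 (Dusp16). For naive pluripotency genes, it was -0.85 (Klf2), -0.57 (Nanog), -0.99 (Prdm14), -0.69 (Tcl1) and -0.50 (Zfp42). Among Nodal pathway genes, it was -1.79 (Lefty1), -0.95 (Lefty2), -0.82 (Nodal) and -0.41 (Smad7). For formative epiblast genes, it was 0.82 (Fgf5), 0.73 (Grhl2), 0.59 (Sall2) and -0.42 (Lef1). The DNA methylation gene Dnmt3l had -0.36. Among adhesion, cytoskeletal and membrane-binding genes, it was -0.86 (Anxa2), -0.48 (S100a10), -0.79 (Dsp), 0.48 (Gja1), -0.33 (Gjb5), -0.98 (Itga1), 0.61 (Itga3), -0.54 (Itga9), -0.95 (Jam2), 0.70 (Krt18) and -0.87 (Ncam1). For guidance genes, it was -0.71 (Epha1), -0.47 (Epha4), 0.51 (Epha7), -0.66 (Nrp2), 0.54 (Sema4c) and 0.89 (Sema6a). Among transporters and other membrane proteins, it was -1.09 (Mme), -1.36 (Nt5e), -1.30 (Gprc5a), 0.92 (Lpar6), -1.14 (Slc15a1), -0.95 (Slco4c1), 0.33 (Slc7a11), 0.51 (Rhd) and 0.89 (Gpm6a). For signalling antagonists and a small GTPase gene, it was -0.98 (Sfrp1), -1.05 (Hhip) and 0.39 (Rragd). Among metabolic and lysosomal genes, it was 0.29 (Pdk1), 0.44 (Pfkm) and -0.30 (Npc1). For genes of other kinds, it was -0.63 (Mitf), -0.40 (Pax6), 1.17 (Wt1), -1.16 (Nefl), 1.08 (Il10), 0.25 (Cdk6) and 0.33 (Rrp9). The adjusted p ranged from 8.46e-07 (Klf2) to 0.0498 (Sema6a). The calls for Cdk6, Dnmt3l, Dusp1, Dusp9, Epha7, Fgf5, Gja1, Gjb5, Rrp9, Sema6a and Slc7a11 were lost on leaving out at least 1 array, and 5 of them with the replicate block. The cause of these differences was not tested.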

How the results depend on the processing

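The PD03 minus DMSO count of 3354 stayed within 1.5 times under every alternative except the 2-fold minimum (76), and leaving out 1 array gave 2631 to 3154 genes. The 2i minus CHIR count of 1887 was 30 with the 2-fold minimum and 1387 to 1529 without 1 array. Of the 164 named genes that passed in PD03 minus DMSO, 139 passed under all alternatives that tested them, the 2-fold minimum aside, and 25 were lost in at least 1, each of them on leaving out an array; 13 others gained a call. Etv5, which did not pass in the main fit, alone changed sign, to -0.33 with the mean of its probe sets. The interaction count of 406 was 255 to 437 without 1 array (269 and 255 without PD03 replicate 1 or 3). Centring moved the higher share from 60.3% to 49.8% in 2i minus CHIR and from 45.8% to 32.9% in the interaction; the cause was not tested. Same-numbered arrays did not deviate together throughout for PD03 and DMSO, with correlations of -0.10, 0.34 and 0.05. For 2i and CHIR the correlations were all positive, at 0.06, 0.23 and 0.11. The numbers were not taken as pairs in the main fit. The fit with the replicate block gave 3229, 1780 and 352 genes and lost 4 of the named PD03 minus DMSO calls. Low signals carry no detection call and may understate differences.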

Other observations

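A few imprinted genes outside the lists were looked at after their values were seen, with no list of imprinted genes behind them. Peg10, a paternally expressed gene derived from a retrotransposon, read 9.83, 9.76 and 9.70 in PD03 and 10.87, 11.00 and 11.14 in DMSO (-1.24 ± 0.07, adjusted p = 7.31e-09). Its imprinted neighbour Sgce read 8.43, 8.32 and 8.47 against 9.14, 8.88 and 8.99 (-0.60 ± 0.08). Both differed by similar amounts in the presence of CHIR99021, at -1.23 ± 0.07 and -0.60 ± 0.08 (interaction adjusted p = 0.987 and 0.991). Peg3, at another imprinted locus, was at -0.31 ± 0.03 and -0.34 ± 0.03. Rian, a noncoding RNA of the domain that holds the Mir379 cluster, was at -0.28 ± 0.07, a call lost without DMSO replicate 2, and Meg3 of the same domain at -0.12 ± 0.05, which did not pass.

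Further genes with large increases stood on no list. Hhip, which binds hedgehog ligands, read 9.26, 9.12 and 9.24 in PD03 and 7.40, 7.79 and 7.87 in DMSO (1.52 ± 0.11), and its 2iLIF mean of 7.14 was below every DMSO array. Ckb, the brain creatine kinase, read 11.39, 11.43 and 11.36 against 10.06, 10.01 and 10.05 (1.36 ± 0.04), and its 2iLIF mean of 12.48 was above both groups.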
